A study of Mus musculus with 18 samples.

Results

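The change in gene expression from adherent neural stem cells (NSCs) to astrocytes was described in a spinal cord line traced with tdTomato. It comprised 6 of the 18 libraries of the series, 3 of NSCs and 3 of astrocytes, chosen by the line and cell fate in the sample labels. The line was grown from tdTomato+ neurosphere cells of DNGR-1CreROSALSLtdTomato mice, with the genotype given as DNGR-1 +/- Tom+/-. In these mice Cre is expressed from the locus of DNGR-1 (Clec9a), a receptor of dendritic cells, so that the reporter marks cells with a history of its expression, though recombination can miss some of them. All 6 libraries carry the same alleles. NSCs were kept adherent with EGF and bFGF (20 ng/ml each), heparin (5 µg/ml) and laminin (2 µg/ml) and were collected after 4 days. For astrocytes, cultures adherent for 24 h received BMP4 (20 ng/ml), which was renewed after 3 days, and were collected after 6 days. The medium described for this step lists no EGF or bFGF, so that BMP4, loss of the growth factors and time in culture cannot be told apart. Each fate was sampled at passages 10, 11 and 12 of this single line, so that p-values measure only the spread between these cultures. The other 12 libraries, of an EYFP-traced spinal cord line and a hippocampal line treated alike, were used only where stated.

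BMP4 is a secreted ligand of the TGF-beta family. It binds paired type I and type II receptors, which phosphorylate SMAD1, SMAD5 and SMAD9, and these switch on the Id genes and the inhibitory SMADs that dampen the signal again. On neural stem cells in culture BMP4 is widely used to stop division and to obtain astrocytes, the glia that clear glutamate, buffer potassium, store glycogen and supply lipids to other cells.

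Expression is given as the deposited log2 value of a gene in a library, on a scale with the form of a regularized log, which draws the values of weak genes together. A difference of 1 between groups stands for 2-fold. For weak genes the difference comes out too small, and where 1 group has no reads its size is arbitrary. Of 27997 genes in the table, 14728 reached 3.32, or 10 before taking logs, in 3 or more of the 6 libraries and were tested. Changes are astrocytes minus NSCs with the standard error (SE) from limma, and a gene is said to rise or fall where its Benjamini-Hochberg adjusted p was under 0.05. In bulk RNA, fewer cells of a type and less RNA per cell cannot be told apart.

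Most genes tested differed between the fates (79.3%), and the values of NSC and astrocyte libraries did not overlap for 81.6%. Expression was higher in astrocytes for 5870 genes (39.9% of those tested) and lower for 5811 (39.5%), by at least 1 on the log2 scale for 2239 (15.2%) and 1707 (11.6%). The median change over all genes tested was 0.0012, with quartiles at -0.51 and 0.57. Against this background a count of risen or fallen members says little unless it stands well above 40%. Gene lists are therefore described by their counts and median beside these shares, with no test of the list. The 48 lists held 1695 genes, of which 1413 were tested, 626 rose and 581 fell. In 30 of the members tested all 3 NSC libraries were under 3.32, and in 22 all 3 astrocyte libraries, so that these members passed the filter only through the fate in which they were high. Replicates differed by a median of 0.059 to 0.0975 per pair over the 11478 genes at 6.64 or more. Astrocyte replicate 1 stood apart in that its 10 highest genes made up 5.53% of the summed linear values, against 8.47% and 8.38% in replicates 2 and 3.

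**Figure D1:**
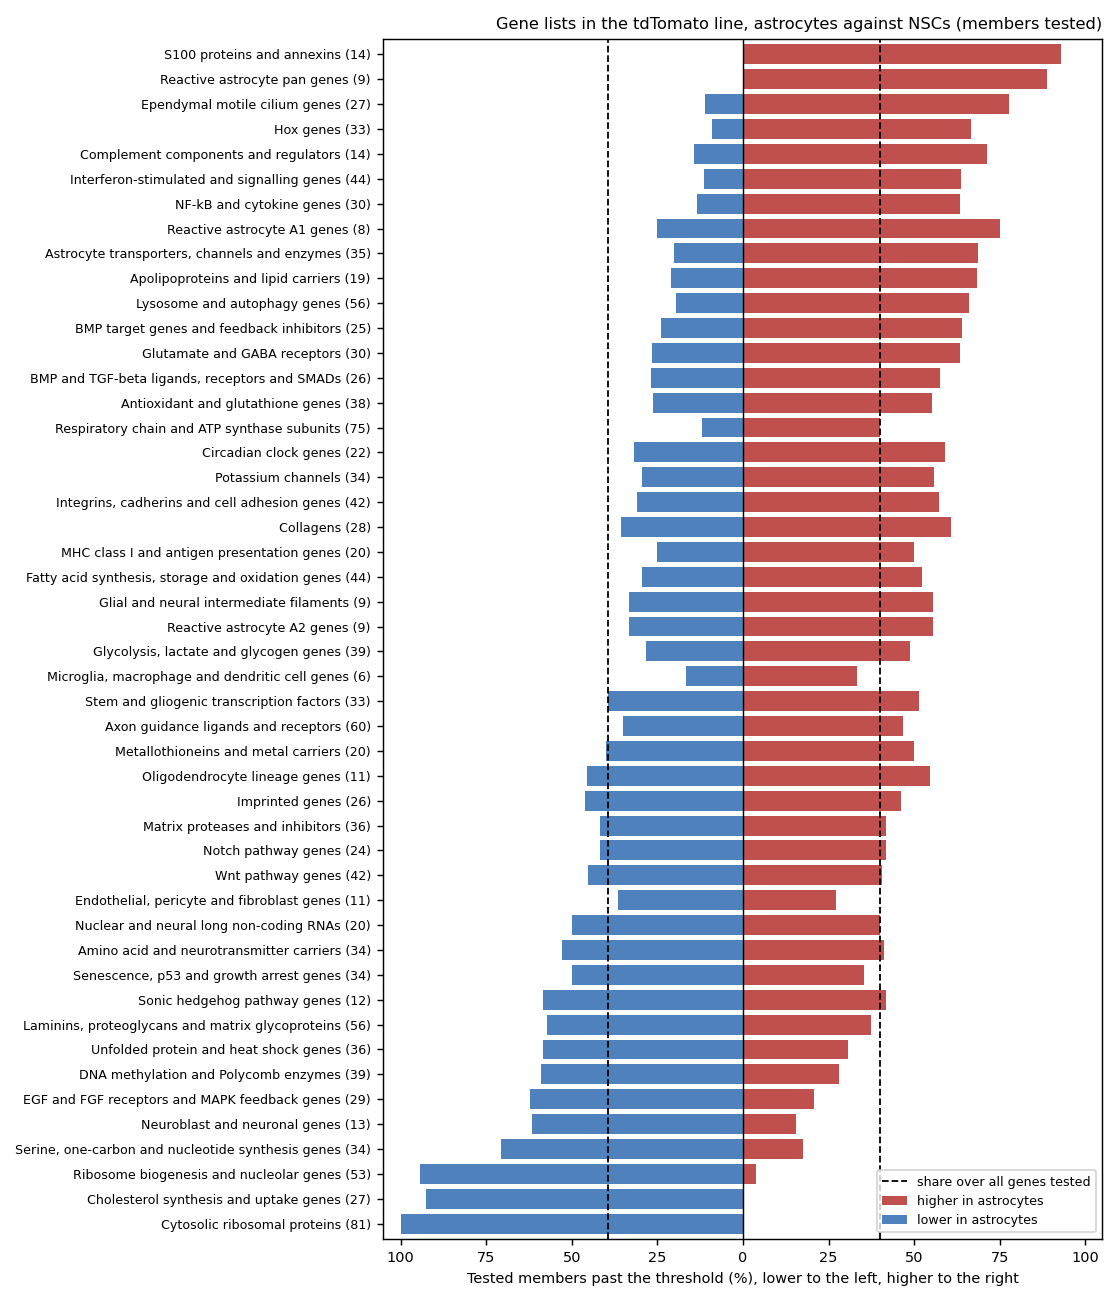
Percentage of the tested members of each gene list that rose (red, to the right) or fell (blue, to the left) in tdTomato astrocytes against NSCs, with the number of members tested in brackets and the shares over all genes tested as dashed lines (39.9% higher, 39.5% lower). Cytosolic ribosomal proteins, cholesterol genes and ribosome biogenesis genes lie at the bottom, and S100 proteins with annexins and pan-reactive astrocyte genes at the top.

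The astrocyte label was checked first on markers. Aqp4, the astrocyte water channel, had log2 values of 8.38, 7.60 and 7.65 in the NSC libraries and 12.07, 11.68 and 11.98 in the astrocyte libraries. Slc1a2, the main glutamate transporter of astrocytes, stood at 11.90, 11.62 and 11.41 in NSCs and at 15.07, 15.06 and 15.08 in astrocytes. Neither gene's groups overlapped, and all 8 astrocyte markers rose, Glul least. Aldh1l1, a folate enzyme of astrocytes, rose by 0.45 (SE 0.14, adjusted p = 0.0144), a call that was lost without a filter on low values (adjusted p = 0.0512) and without NSC replicate 3 (0.0528) or astrocyte replicate 3 (0.0524). The stem cell labels held in part, since Egfr, the EGF receptor, fell by 1.57 (SE 0.08) and Olig2, a glial progenitor factor, by 1.70 (SE 0.10), whereas Sox2 rose by 1.35.

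Markers of other cell types were mostly at the bottom of the scale. The microglial and dendritic cell genes Ptprc, Aif1, Csf1r and Xcr1 were under the filter, as were Mbp, Mog, Mag and Sox10 of oligodendrocytes and Pecam1, Pdgfrb and Dcn of vessels and fibroblasts. Clec9a, Cx3cr1 and Cldn5 have no row in the table used here. The summed linear value of the 4 microglial and dendritic cell genes with a row lay between 4.63 and 6.50 in NSC libraries and between 11.9 and 14.2 in astrocyte libraries. The sum over the 6 oligodendrocyte markers was 196.8 to 210.4 in NSC libraries and 1137 to 1384 in astrocyte libraries, nearly all of it from 1 of them. Kcnj8, a potassium channel subunit of pericytes, rose by 3.99 (SE 0.26). The sum over the 6 vascular and fibroblast markers with a row went from between 61.6 and 69.9 to between 162 and 244.3, mostly through Kcnj8 itself. Flt1 and Col1a1 of the same markers were not past the threshold (0.17 and 0.24, adjusted p = 0.323 and 0.411, limma). The part of these cell types in the results below was not tested.

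The 20 largest rises and 20 largest falls were taken among protein-coding genes past the threshold, with groups that do not overlap and a mean of at least 6.64 in the higher group, without cell cycle genes and without Gfap, C3, Myoc and Nes. At the head of the rises stood Fmod (fibromodulin), a small leucine-rich proteoglycan that binds collagen, on chromosome 1 from 134037254 to 134048277 (GRCm38). Fmod had log2 values of 4.51, 4.50 and 4.30 in NSCs and 11.21, 10.90 and 10.94 in astrocytes, a change of 6.58 (SE 0.11, adjusted p = 2.06e-10, limma), between 6.48 and 6.64 with any library left out. Hspb8, a small heat shock protein of chaperone-assisted autophagy on chromosome 5 from 116408491 to 116422864, went from 7.33, 7.41 and 7.35 to 13.77, 13.42 and 13.30, a change of 6.13 (SE 0.10, adjusted p = 2.44e-10). The rule chose these genes for the size of the change and for separate groups, so that their values are a description.

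Further rises fell into several kinds of gene. Secreted and surface proteins were Pi15, a peptidase inhibitor (6.15), Glycam1, a mucin-like glycoprotein (6.03), Reln, the glycoprotein that guides migrating neurons (5.63), Aplnr, the apelin receptor (5.49), and Col23a1, a membrane collagen (5.03). Metabolic genes were Cidea, a lipid droplet protein (6.44), Bbox1, which makes carnitine (5.46), Ddo, which oxidizes D-aspartate (5.19), Phkg1, a subunit of phosphorylase kinase (4.91), and the transporter Abca8a (4.90). Scaffold and cytoskeletal genes included Ahnak (5.99), Srcin1 (5.59) and Ctnna3, a catenin (5.01). Psd2 (5.05) and Tmem255a (4.94) were also among the 20, together with Atoh8 and Id4, described with the BMP targets. For Glycam1, Srcin1, Aplnr, Bbox1, Ddo, Ctnna3 and Abca8a at least 1 NSC library was under 3.40, where the size of a change is least certain.

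At the other end Igsf21, an immunoglobulin superfamily protein of synapses on chromosome 4 from 140026846 to 140246784, had log2 values of 8.59, 9.14 and 9.18 in NSCs and 2.48, 2.48 and 3.29 in astrocytes. It fell by 6.22 (SE 0.25, adjusted p = 2.60e-08). Nptx2, a neuronal pentraxin on chromosome 5 from 144545902 to 144557478, fell by 5.36 (SE 0.18), from 9.14, 9.43 and 9.30 to 4.05, 3.51 and 4.24. Grm5, the metabotropic glutamate receptor of immature astrocytes on chromosome 7 from 87584168 to 88134907, stood at 12.45, 12.39 and 12.39 in NSCs and at 7.40, 7.66 and 7.68 in astrocytes. It fell by 4.83 (SE 0.07, adjusted p = 2.00e-10) and, unlike Igsf21, stayed well above the filter in astrocytes. Other large falls were those of the transcription factors Myt1 (-4.51) and Sox3 (-4.16), the enzymes Hk2 (-4.74) and Bcat1 (-4.52), the lipid transporter Mfsd2a (-4.35), the kinase Stk32b (-4.65), the metalloprotease Adam19 (-4.21), Col28a1 (-4.29), Megf6 (-4.22), Pstpip2 (-4.22), Rab26 (-3.97) and the potassium channel Kcnk5 (-3.97). Pif1, Ankle1 and Arhgef39, at -5.01, -4.74 and -4.43, are known from dividing cells. For Igsf21, Pif1, Ankle1, Stk32b, Arhgef39, Pstpip2 and Kcnk5 at least 1 astrocyte library was under 3.40, with the same limit on the size of the change.

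**Figure D2:**
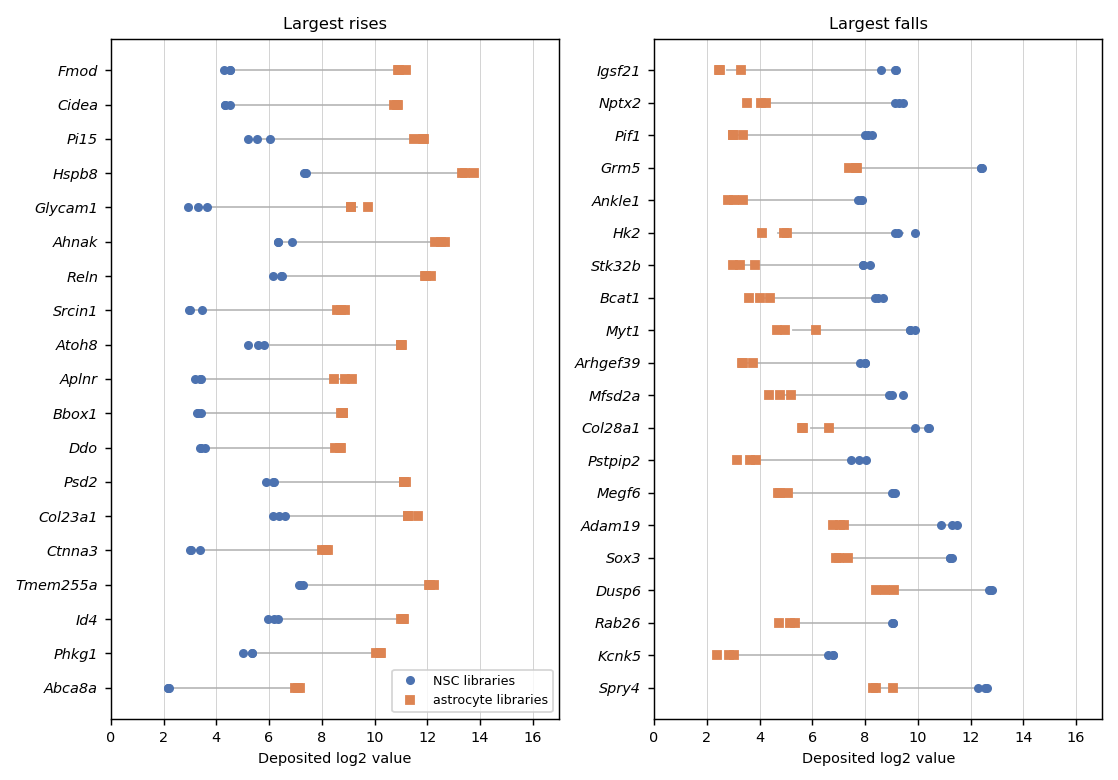
Deposited log2 values of 19 of the 20 genes with the largest rise (left) and the 20 with the largest fall (right) in the 3 NSC libraries (blue circles) and 3 astrocyte libraries (orange squares), joined by a line between the means. The groups of all genes shown are separate, as the rule required, and Fmod spans 4.30 to 11.21.

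BMP signalling genes rose at the level of receptors, SMADs and targets. The type I receptor Bmpr1b had log2 values of 8.90, 8.39 and 8.19 in NSCs and 11.42, 11.40 and 11.55 in astrocytes, a rise of 2.96 (SE 0.15). Its relative Bmpr1a rose by 1.47 (SE 0.04), from 12.23, 12.20 and 12.22 to 13.63, 13.67 and 13.76. Among the signal transducers, Smad9 rose by 3.54 (SE 0.11) and Smad1 by 0.35 (SE 0.05). The ligand Bmp7 fell by 3.22 (SE 0.09), from 9.63, 9.81 and 9.76 to 6.39, 6.64 and 6.50. Bmp6, another ligand, rose by 3.59 from values under 1.47 in all NSC libraries. It passed the filter only through the astrocytes, so that a fall could not have been seen and the size of its rise is uncertain. Of 26 ligands, receptors and SMADs of the family tested (of 30 listed), 15 rose and 7 fell, with a median change of 0.38. Tgfbr1, the type I receptor for TGF-beta, fell by 1.03 (SE 0.07) and Inhbb, an activin subunit, by 0.73 (SE 0.08).

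Targets and feedback inhibitors of BMP showed larger changes. Id4, which encodes an inhibitor of basic helix-loop-helix factors, lies on chromosome 13 from 48261228 to 48266026 and had values of 6.35, 6.20 and 5.95 in NSCs and 11.02, 11.13 and 11.10 in astrocytes. Its rise was 4.92 (SE 0.10, adjusted p = 4.56e-10). Atoh8, a basic helix-loop-helix factor itself, went from 5.58, 5.80 and 5.19 to 11.03, 11.01 and 11.02, a rise of 5.50 (SE 0.13). The astrocyte libraries lay close together for both genes. The other Id genes rose less, Id1 by 2.60 (SE 0.14), Id2 by 1.96 (SE 0.10) and Id3 by 1.75 (SE 0.07), and the inhibitory SMADs Smad6 and Smad7 rose by 3.92 (SE 0.18) and 3.20 (SE 0.12). In all, 16 of 25 tested targets and inhibitors rose, 15 of them by at least 1, and 6 fell, with a median of 1.68. Falling members included the extracellular antagonists Fst (follistatin, -2.11) and Chrdl1 (-1.99) and the homeobox gene Dlx1 (-1.35).

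The RefSeq promoter windows (GRCm38.p6, from upstream of the start into the first transcribed bases) of these genes were read for short motifs, because 15 of the 25 rose by at least 1. The table held windows for 17 of the 25 genes, 18 in all. The letters GGCGCC, a GC-rich element known to bind SMADs, were in 7 of the 18 windows (38.9%), against 11.9% of all 32851 windows, and in 7 of 17 genes against 25.4% of 10622 tested genes with a window. The palindrome GTCTAGAC was in 1 window (5.56%), against 0.213% of all. Neither motif can overlap the other, and both read the same on either strand. The windows of Id4 (chr13:48260866-48261165, plus strand), with GGCGCC at position -148 from the start, and of Smad6 (chr9:64022010-64022309, minus strand), with GTCTAGAC at position -4, are shown because these genes had the largest rises among named members with either motif. Capitals mark the motif.
Id4: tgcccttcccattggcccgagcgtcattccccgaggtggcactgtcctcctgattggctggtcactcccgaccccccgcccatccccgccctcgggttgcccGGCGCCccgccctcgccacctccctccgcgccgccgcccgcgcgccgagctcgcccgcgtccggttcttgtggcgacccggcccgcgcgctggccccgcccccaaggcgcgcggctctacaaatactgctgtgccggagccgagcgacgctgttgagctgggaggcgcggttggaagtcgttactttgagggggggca
Smad6: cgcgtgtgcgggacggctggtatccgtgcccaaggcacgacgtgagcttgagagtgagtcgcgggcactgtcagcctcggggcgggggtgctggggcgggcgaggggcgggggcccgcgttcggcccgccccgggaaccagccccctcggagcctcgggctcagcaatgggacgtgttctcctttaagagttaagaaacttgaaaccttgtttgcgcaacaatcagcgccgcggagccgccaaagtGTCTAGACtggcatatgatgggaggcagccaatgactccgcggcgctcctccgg
A match describes letters and was not tested as a binding site.

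Feedback genes of EGF and FGF receptor signalling were among the larger falls. ERK signalling is known to switch on its own brakes, the phosphatase Dusp6 and the Sprouty proteins, and the ETS factors Etv4 and Etv5. Dusp6, on chromosome 10 from 99263231 to 99267489, stood at 12.68, 12.75 and 12.81 in NSCs and at 8.41, 9.10 and 8.77 in astrocytes, a fall of 3.99 (SE 0.14, adjusted p = 1.25e-08). Spry4 fell by 3.90 (SE 0.18), from 12.29, 12.55 and 12.63 to 8.29, 9.05 and 8.43, and Spry1 changed by -2.89 (SE 0.11). Astrocyte replicate 2 was the highest of its group for Dusp6, Spry4, Spry1, Etv5 and Etv4, and still under every NSC library. Etv5 fell by 1.93 (SE 0.11), Etv4 by 0.97 (SE 0.11) and Myc by 0.55 (SE 0.09). Receptors divided, with Egfr lower, Fgfr2 higher by 1.60 (SE 0.09) and Erbb4 higher by 1.30 (SE 0.18), and Fgfr3 changed by 0.20 (SE 0.12, adjusted p = 0.169), with overlapping groups. Without NSC replicate 1 Fgfr3 was past the threshold (0.34, adjusted p = 0.0138). The ligand Fgf2 rose by 2.20 (SE 0.14). Over the list, 18 of 29 tested members fell and 6 rose (median -0.55).

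**Figure D3:**
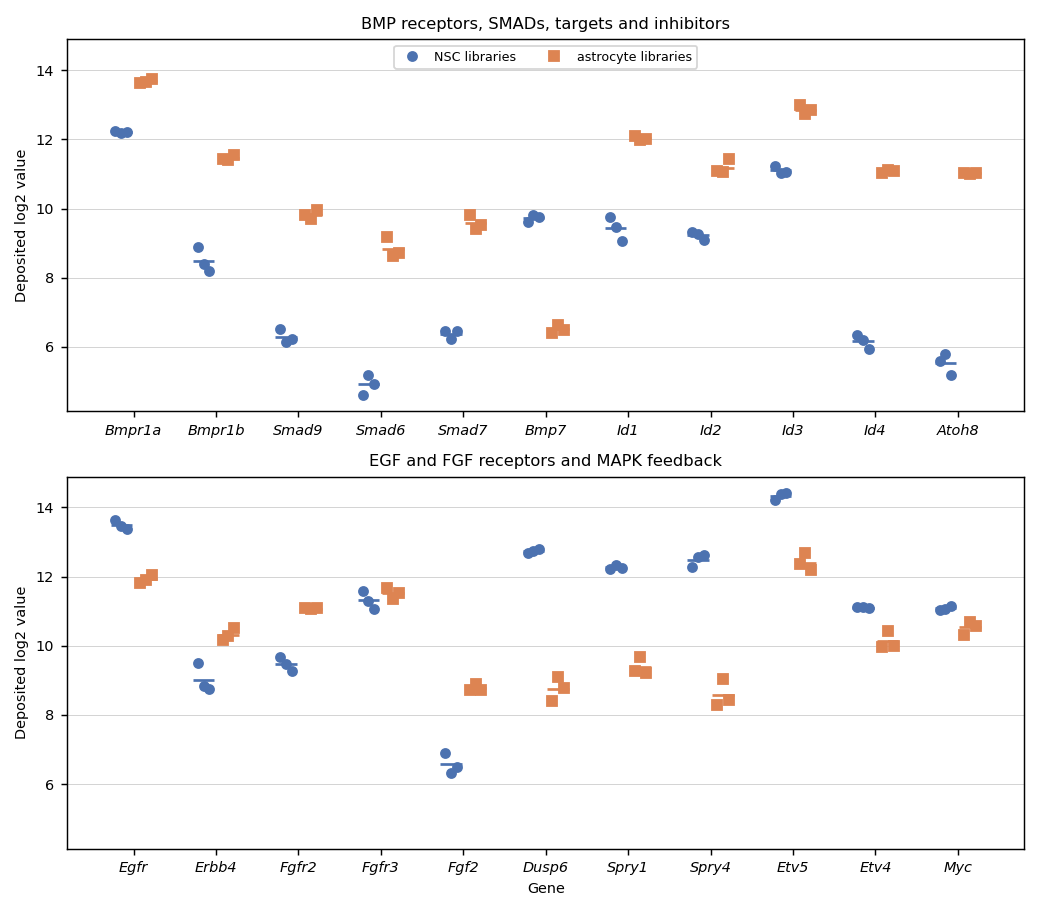
Deposited log2 values of BMP pathway genes (top) and of EGF and FGF receptors with MAPK feedback genes (bottom) in each NSC library (blue circles) and astrocyte library (orange squares), with bars at the means of 3. Of the BMP genes shown all but Bmp7 are higher in astrocytes, and the feedback genes Dusp6, Spry1 and Spry4 lie lower, at 9.67 or less in every astrocyte library.

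Notch genes were divided, 10 of 24 tested higher and 10 lower (median -0.02). The ligand Dll4 rose by 3.63 (SE 0.16), from 4.65, 4.17 and 4.29 to 8.19, 7.93 and 7.88, while the ligands Dll1 and Dll3 fell by 1.70 (SE 0.13) and 2.83 (SE 0.30). Among target genes Hey1 and Hes5 rose by 1.68 and 1.32, and Hes1 and Nrarp fell by 1.12 and 3.76. Much of the exon sequence of Nrarp (79.4%) and of Hes5 (31.8%) lies under a gene on the opposite strand, and whether the counting used strand is not given in the sources used here. Over 20% of the exon bases also lie so for Dll1, Dhh, Hopx, Spry1, Tapbp, Rps25, Ccn2, Mmp19, Timp3, Slc6a9, Mest and Miat.

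Wnt genes were divided too (17 of 42 tested higher, 19 lower, median -0.03). Wif1, a secreted Wnt inhibitor, rose by 3.93 (SE 0.14), from 7.66, 7.06 and 7.05 to 11.20, 11.13 and 11.23. The ligands Wnt7a and Wnt7b fell by 2.80 (SE 0.11) and 2.66 (SE 0.10), and Wnt4 rose by 2.29 (SE 0.27). The receptor Fzd8 rose by 1.65, and Axin2 and Lef1, targets of canonical Wnt signalling, rose by 1.44 (SE 0.04) and 0.60 (SE 0.14). The secreted Wnt binders Sfrp1 and Sfrp2 fell by 0.97 and 2.67. Of 12 hedgehog pathway genes tested 5 rose and 7 fell. Without any one of the NSC libraries 4 fell, in part because Hhip and Dhh no longer reached the filter in 3 libraries. The transcription factor Gli2 and the co-receptor Boc rose by 1.09 and 1.03, and Ptch1 and Hhip, receptor and decoy that hedgehog signalling itself induces, fell by 0.57 (SE 0.06) and 1.91 (SE 0.21). The ligand Dhh fell by 3.83, to between 1.48 and 2.21.

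Transcription factors of stem cells and glia did not move as a block, 17 of 33 tested higher and 13 lower. Hopx, a homeodomain protein of quiescent stem cells, rose by 3.58 (SE 0.10), from 5.91, 5.95 and 6.07 to 9.66, 9.35 and 9.65. The gliogenic factors Zbtb20, Nfix, Sox9 and Nfia rose by 1.64, 1.03, 0.81 and 0.47. Sox3, which maintains neural progenitors, stood at 11.31, 11.22 and 11.21 in NSCs and between 6.88 and 7.36 in astrocytes, and Sox11, a factor of young neurons, fell by 1.58 (SE 0.07).

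Hox genes keep the position of a cell along the body axis, and 33 of 39 were tested, as 22 higher, 3 lower and 8 not past the threshold (median 0.39). Hoxb9 rose by 1.79 (SE 0.07), from 8.95, 9.11 and 9.13 to 10.86, 10.96 and 10.76, and Hoxc8 by 1.72 (SE 0.09). Hoxc10 changed by -0.06 (SE 0.07, adjusted p = 0.489), and Hoxb13, a gene of the tail end, fell by 2.50 from values of 3.37, 3.39 and 3.61. Without NSC replicate 2 or 3, 1 Hox gene was counted as lower instead of 3, since Hoxb13 no longer reached the filter in 3 libraries and Hoxc12 (-0.40) was no longer past the threshold, as also without astrocyte replicate 3. Of 22 clock genes 13 rose and 7 fell. Dbp, an output gene of the clock, rose by 2.12 (SE 0.08), Bhlhe41 by 1.86 and Nr1d1 by 1.22, and Ciart, Nfil3 and Csnk1e fell by 1.60, 1.38 and 0.88. Per2 changed by -0.14 (adjusted p = 0.209), with groups that overlapped, and fell past the threshold without NSC replicate 3 (-0.27, adjusted p = 0.00537).

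Genes of astrocyte function rose for the most part, 24 of 35 tested against 7 lower, with a median of 1.20. Clu (clusterin), an extracellular chaperone and lipoprotein component, rose by 4.13 (SE 0.09), from 8.44, 8.39 and 8.18 to 12.64, 12.29 and 12.48. Slc14a1, a urea transporter, rose by 4.55 (SE 0.15) and the gap junction gene Gja1 by 1.74 (SE 0.09). Changes were small for Slc1a3, the other glutamate transporter (0.60, SE 0.10), and for Glul, which makes glutamine (0.25, SE 0.05). Kcnj10, the potassium channel Kir4.1, rose by 0.21 (SE 0.07, adjusted p = 0.0189), a call that was lost without a filter on low values (0.0832), without a trend in the variance (0.0502), under quantile normalization (0.0630) and without NSC replicate 2 (0.0744) or 3 (0.0684). Against the direction of the list, the GABA transporter Slc6a11 fell by 1.75 (SE 0.17). Mfge8, a secreted bridge for engulfment, fell by 1.44 (SE 0.06).

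Carriers of amino acids moved in both directions, with 14 of 34 tested higher and 18 lower. Slc6a8, the creatine transporter, rose by 2.77 (SE 0.04, adjusted p = 1.16e-10), from 10.66, 10.69 and 10.71 to 13.47, 13.43 and 13.47. Slc7a8 and Slc7a2, carriers of neutral and cationic amino acids, rose by 3.11 and 2.15. Slc43a1, Slc1a5 and Slc7a5, which bring neutral amino acids into dividing cells, fell by 3.33 (SE 0.11), 3.15 (SE 0.12) and 1.20 (SE 0.06), and the glycine transporter Slc6a9 by 1.74.

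Receptors for glutamate and GABA changed by wide margins in both directions, 19 of 30 tested higher and 8 lower (median 0.87). The AMPA receptor subunit Gria1 rose by 4.15 (SE 0.17), from values between 2.37 and 2.39 to 6.70, 6.33 and 6.55. All its NSC values were under the filter, so that it was tested only through the astrocytes and the size of its rise is uncertain. The GABA-A subunits Gabra5, Gabra2 and Gabrb1 rose by 3.76, 3.35 and 2.54. Falls were those of Grm5, described above, of Grm3, the other metabotropic receptor of astrocytes (-3.01, SE 0.10), and of Grin1, the obligate NMDA subunit (-3.29, SE 0.21). Among potassium channels 19 of 34 tested rose and 10 fell. Kcna6 rose by 3.60 (SE 0.16), from 7.17, 6.94 and 6.41 to 10.51, 10.43 and 10.38, though 39.6% of its exon bases lie under a gene on the opposite strand, and Kcnh5 rose by 3.23. Kcnc1 fell by 2.09 (SE 0.05). Intermediate filament genes were 5 higher and 3 lower of 9 tested, with Synm rising by 1.06 and Vim by 0.66 (SE 0.07), lost under quantile normalization (0.12, adjusted p = 0.207). The nuclear lamins Lmnb1 and Lmnb2 fell, with changes of -3.48 and -1.30.

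Cholesterol synthesis and uptake fell almost as a whole, while lipid carriers rose. All 27 listed genes were tested, 25 fell, 23 of them by at least 1, and none rose in limma at an adjusted p under 0.05 (1 rose under median centring, and 24 or 25 fell under each alternative). The median change was -2.02. Fdps, which builds farnesyl diphosphate, lies on chromosome 3 from 89093588 to 89101959 and had log2 values of 12.29, 12.61 and 12.81 in NSCs and 9.51, 9.54 and 9.43 in astrocytes, a fall of 3.08 (SE 0.11, adjusted p = 1.31e-08). Idi1, which isomerizes isoprenoid units, fell by 2.80 (SE 0.10), from 12.02, 12.21 and 12.43 to 9.27, 9.52 and 9.47. The NSC libraries lay above the astrocyte libraries for both, with no overlap. Hmgcs1 and Sqle, at the entry to the pathway and at the entry to its sterol arm, fell by 1.51 and 1.57. Other gene models share 23.5% of the 75-base stretches of Fdps and 16.7% of those of Idi1. The exceptions, chosen after their values were seen, were Srebf1 and Scap, regulators of the pathway, at 0.09 and 0.02.

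The same promoter windows were read for TCACNCCAC (other strand GTGGNGTGA), a form of the sterol regulatory element bound by SREBP, and for CCAAT (other strand ATTGG), the box bound by NF-Y. Windows were held for 19 of the 27 genes, 25 in all. The first was in 1 window, that of Hmgcs1 (4% against 1.24% of all windows). The CCAAT box was in 18 windows (72% against 37.4%) and in 17 of 19 genes, against 43.3% of tested genes. The windows of Hmgcs1 (chr13:119690101-119690400, plus strand) and Idi1 (chr13:8885356-8885655, plus strand) are shown as examples from the genes described above. In capitals stand the sterol element at position -137 from the start of Hmgcs1 and its 4 CCAAT boxes on the other strand, and the 2 such boxes of Idi1, at positions -45 and -14. The motifs do not overlap in these windows.
Hmgcs1: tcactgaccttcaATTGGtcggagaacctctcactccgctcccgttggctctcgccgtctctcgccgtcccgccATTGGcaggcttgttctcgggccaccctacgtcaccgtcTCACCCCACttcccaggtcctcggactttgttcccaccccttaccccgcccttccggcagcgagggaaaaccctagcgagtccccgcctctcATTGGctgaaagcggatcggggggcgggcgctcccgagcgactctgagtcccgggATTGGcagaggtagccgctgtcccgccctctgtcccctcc
Idi1: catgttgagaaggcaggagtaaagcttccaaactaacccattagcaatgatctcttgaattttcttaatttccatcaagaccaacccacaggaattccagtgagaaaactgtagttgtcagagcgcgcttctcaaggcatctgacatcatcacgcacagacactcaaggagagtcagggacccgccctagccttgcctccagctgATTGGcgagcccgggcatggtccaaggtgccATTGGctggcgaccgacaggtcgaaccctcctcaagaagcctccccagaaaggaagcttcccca
No binding was measured at these letters.

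Apolipoproteins and lipid carriers rose in 13 of 19 tested and fell in 4 (median 1.43). Apoe, the main lipoprotein of astrocytes on chromosome 7 from 19696109 to 19699188, went from 12.52, 12.01 and 11.78 to 15.93, 15.56 and 15.82, a rise of 3.67 (SE 0.17, adjusted p = 6.36e-08). Abca1, which exports cholesterol, rose by 3.18 (SE 0.18), from 10.95, 10.37 and 10.09 to 13.63, 13.59 and 13.73, and Lcat, which esterifies it, by 3.64 (SE 0.09). Scarb1, a receptor for HDL, moved the other way, from 10.92, 11.08 and 11.06 to 7.21, 7.09 and 7.28, a fall of 3.83 (SE 0.07). The endocytic receptor Lrp2 fell by 1.39 and Ptgds, a lipocalin, by 1.10.

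**Figure D4:**
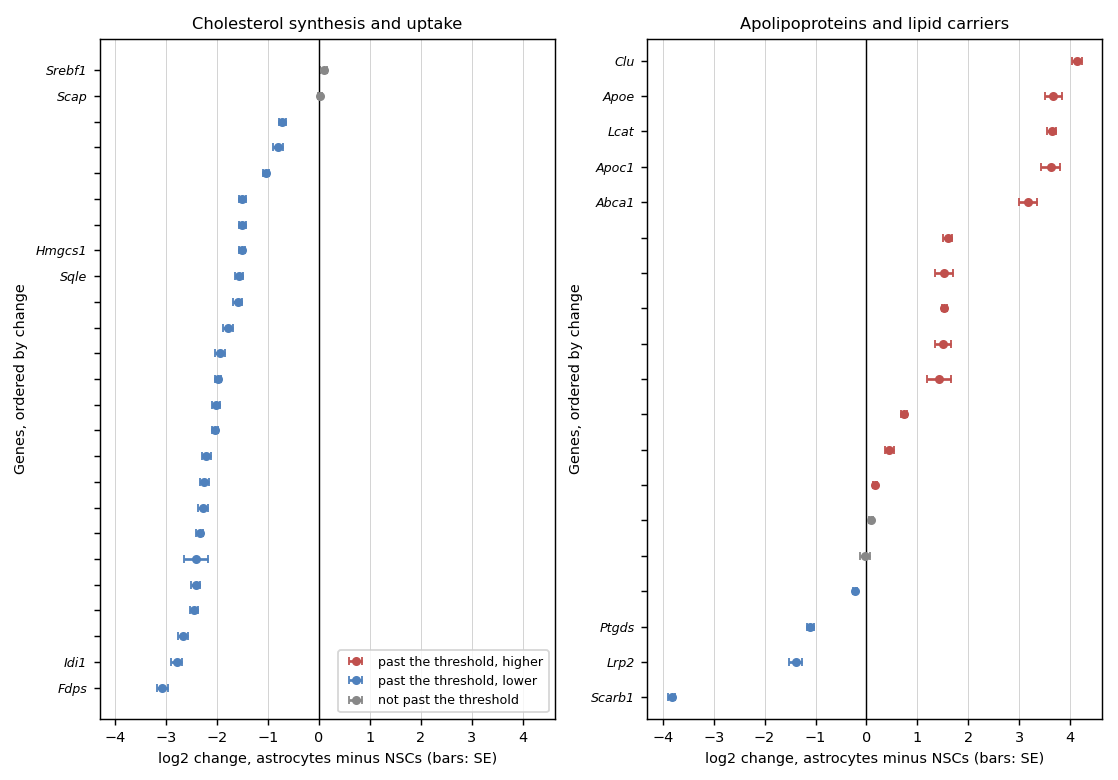
log2 change from NSCs to astrocytes with its SE for 25 of the 27 cholesterol genes (left) and the 19 apolipoproteins and lipid carriers tested (right), coloured by call, with the genes named in the text labelled. The cholesterol genes lie to the left of 0 except Srebf1 and Scap, down to -3.08 for Fdps, and Clu, Apoe, Lcat, Apoc1 and Abca1 lie above 3 on the right.

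Fatty acid genes showed no common direction, 23 of 44 tested higher and 13 lower (median 0.15). Genes of oxidation were among the rises, with Cpt1a, which admits fatty acids to mitochondria, at 0.49 (SE 0.06), and Pdk4, which spares glucose, at 2.06 (SE 0.14). Genes of synthesis were among the falls. Acly, which makes cytosolic acetyl-CoA, went from 13.22, 13.45 and 13.58 to 12.00, 11.88 and 11.91 (-1.49), Elovl6 changed by -2.01, Fasn by -0.79 and Scd2 by -0.48, while Acacb rose by 1.64.

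Glycogen and glucose genes were 19 higher and 11 lower of 39 tested (median 0.22). Pygb, a glycogen phosphorylase, rose by 3.34 (SE 0.07, adjusted p = 4.56e-10), from 11.42, 11.31 and 11.25 to 14.79, 14.57 and 14.64. Ppp1r3c, which targets a phosphatase to glycogen, rose by 2.65 (SE 0.12), Pdk2 by 2.37 and Aldoc, the brain aldolase, by 2.17. Ldhb, the lactate dehydrogenase subunit of oxidative tissue, rose by 1.64 (SE 0.06). Hk2, the hexokinase of dividing cells, fell from 9.13, 9.88 and 9.27 to 4.08, 4.93 and 5.05 (-4.74, SE 0.27), and the glucose transporter Slc2a3 fell by 1.48.

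Respiratory chain genes changed by small steps, whereas ribosomal protein genes fell as a whole. Over 75 subunits of the respiratory chain and ATP synthase the changes lay between -0.38 and 0.70, with 30 higher and 9 lower (14 lower without astrocyte replicate 1). Sdha rose by 0.60 (SE 0.04), from values of 13.15, 13.14 and 13.12 to 13.76, 13.72 and 13.72. All 81 cytosolic ribosomal protein genes fell, by 0.20 to 1.15 with a median of -0.73, and all 81 fell under each alternative. Rps25 fell by 1.08 (SE 0.05), from 12.98, 12.99 and 13.05 to 12.04, 11.88 and 11.88, and Rpl3 changed by -0.64 (SE 0.06). Pseudogenes and other gene models share 32.0% of the 75-base stretches of Rpl3 and 42.2% of those of Rps6 (-0.91). Ribosome biogenesis followed, with 50 of 53 genes lower (median -0.88). Nop56, Fbl and Npm1 fell by 1.59, 1.23 and 1.16, and Imp4 and Ubtf were the 2 that rose (0.33 and 0.16), Ubtf not without NSC replicate 3 (adjusted p = 0.0566).

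Synthesis of serine, folate units and nucleotides fell in 24 of 34 tested genes and rose in 6 (median -0.62). Psat1, of the serine pathway, went from 13.37, 13.44 and 13.46 to 11.19, 11.08 and 10.95, a fall of 2.35 (SE 0.06). The mitochondrial folate enzymes Mthfd1l, Mthfd2 and Shmt2 fell by 2.37, 1.80 and 1.02, and Impdh1, of guanine nucleotide synthesis, by 2.10. Phgdh, the first enzyme of the serine pathway, stood at 12.80, 12.76 and 12.78 in NSCs and at 12.95, 12.64 and 12.89 in astrocytes (0.05, SE 0.07, adjusted p = 0.545), and passed the threshold without astrocyte replicate 2 (0.14, adjusted p = 0.0196), and other gene models share 35.8% of its stretches. Asns and Atf4, genes of the amino acid response, fell by 1.71 (SE 0.04) and 1.44 (SE 0.05).

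Lysosomal genes rose in 37 of 56 tested and fell in 11 (7 under median centring or quantile normalization), with a median of 0.39. Psap, the precursor of the saposins, went from 14.57, 14.61 and 14.58 to 16.18, 16.10 and 16.08, a rise of 1.54 (SE 0.06). Cathepsins F, B and D (Ctsf, Ctsb, Ctsd) rose by 1.83, 1.51 and 1.20 (Ctsd shares 31.3% of its stretches with another gene model), the membrane protein Lamp2 by 1.41, and Wipi1, of autophagosome formation, by 1.86. The hydrolases Gusb and Glb1 fell by 0.92 and 0.87.

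Protein folding genes were lower more often than higher, 21 of 36 against 11 (median -0.27). Small heat shock proteins were among the rises, Hspb8 above and Cryab by 2.37 (SE 0.13), together with Hspa1a (2.71), which shares 54.2% of its stretches with its neighbours. Hspa5, the chaperone BiP of the endoplasmic reticulum, and Hspa8 fell by 0.62 and 0.61, and other gene models share 32.8% of the stretches of Hspa8. Antioxidant genes were 21 higher and 10 lower of 38. Txnip, an inhibitor of thioredoxin, rose by 3.29 (SE 0.17), and Txn1, thioredoxin itself, fell by 2.35 (SE 0.05), from 14.15, 14.32 and 14.31 to 11.92, 11.90 and 11.90. Mgst1, Hmox1, Gstm1, Selenop and Cat rose by 2.49, 2.10, 1.96, 1.57 and 1.20, and glutathione reductase (Gsr) fell by 1.67. The metallothioneins Mt2, Mt1 and Mt3 rose by 2.23, 2.06 and 1.26, with 73.5% of the exon bases of Mt2 under a gene on the opposite strand. Slc39a12, a zinc importer, rose by 3.87 (SE 0.15), and the iron carrier genes Trf and Tfrc fell by 2.19 and 1.12, with 55.8% of the stretches of Trf shared with an overlapping gene model. In all, metal carriers were 10 higher and 8 lower of 20.

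Innate immune genes were higher more often than lower. Of 14 complement genes tested (of 30 listed) 10 rose and 2 fell, with a median of 2.61, and 6 rose without astrocyte replicate 2, when 3 of the 10 no longer reached the filter in 3 libraries. C4b had log2 values of 6.16, 6.23 and 6.09 in NSCs and 11.07, 10.48 and 10.90 in astrocytes, a rise of 4.66 (SE 0.13), and shares 22.7% of its stretches with C4a. The serine proteases C1s1 and C1ra rose by 3.15 (SE 0.19) and 2.79 (SE 0.17), the latter sharing 42.4% with C1rb and another gene model. Cd93 and Masp1 fell by 2.47 and 0.83.

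Lists of reactive astrocyte genes were described after injury in the literature of the field. Of 9 pan-reactive genes tested (of 12 listed) 8 rose. Among them was Serpina3n, a serine protease inhibitor, by 3.95 (SE 0.16), from 6.37, 6.46 and 6.70 to 10.83, 10.17 and 10.38. Osmr, the oncostatin M receptor, rose by 3.86 (SE 0.18) and Cd44 by 1.08 (SE 0.05). Of 8 genes of the A1 list tested (of 12 listed) 6 rose and 2 fell. Iigp1 rose by 4.11 (SE 0.15) and Gbp2 by 3.05 (SE 0.10), and Fkbp5 fell by 2.06. Fbln5, the other fall, changed by -0.64 and was not past the threshold without NSC replicate 1 or 2 or astrocyte replicate 2 or 3. Ugt1a6a (3.52) shares 51.2% of its stretches with genes of its locus. Of 9 genes of the A2 list tested (of 12 listed) 5 rose and 3 fell, with Tm4sf1 at 2.34, S100a10 at 1.73 and B3gnt5 at -3.57.

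Interferon genes rose in 28 of 44 tested and fell in 5, with a median of 0.95. Ifit1 had values of 3.47, 3.18 and 3.50 in NSCs and 5.82, 6.17 and 5.86 in astrocytes, a rise of 2.57 (SE 0.18). Ifit3 and Ifit3b, at 3.43 and 4.51, share 41.1% and 35.7% of their stretches with each other. Ifitm3 and Irf7 rose by 1.63 and 1.70, and Trim25, Gbp3 and Irf1 fell by 0.71, 0.49 and 0.32. Antigen presentation genes were 10 higher and 5 lower of 20, with Tapbp higher by 1.43 (SE 0.04) and H2-K1 lower by 0.60 (SE 0.12). Of 30 genes of NF-kB and cytokine signalling 19 rose and 4 fell. The cytokine receptor Il1r1 rose by 3.75 (SE 0.14), from 6.03, 5.77 and 5.55 to 9.70, 9.34 and 9.55, Csf1 by 2.76 (SE 0.08) and Il33 by 1.54. Socs3 rose by 2.06 (SE 0.30), with astrocyte replicate 2 (9.14) below replicates 1 and 3 (10.22 and 10.51). Tnfaip3 and Nfkbiz, targets of NF-kB, fell by 1.20 and 1.32, and Ccl2 changed by 0.35 (adjusted p = 0.0699), past the threshold under median centring (0.0329) and without NSC replicate 3 (0.0187).

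Extracellular matrix genes were rebuilt in both directions. Among 28 collagens tested 17 rose and 10 fell. Col23a1 stood at 6.60, 6.37 and 6.14 in NSCs and at 11.66, 11.27 and 11.28 in astrocytes, and Col28a1 at 9.91, 10.39 and 10.43 against 5.61, 5.63 and 6.63. Col9a3 and Col3a1 fell by 1.52 and 2.25, and Col4a1, of basement membrane, rose by 0.41. Laminins, proteoglycans and matrix glycoproteins fell in 32 of 56 tested and rose in 21 (median -0.58). The leucine-rich proteoglycans Fmod and Bgn rose by 6.58 and 3.87, Ecm2 by 3.55 (SE 0.09) and fibronectin (Fn1) by 2.41 (SE 0.07). Tnc and Vcan, matrix proteins of progenitors, fell by 1.29 (SE 0.06) and 1.41 (SE 0.08), Fbn2 by 3.28 (SE 0.08) and Ccn2, a target of YAP, by 3.33 (SE 0.20), from 8.26, 7.81 and 7.43 to 4.57, 4.61 and 4.34. Bcan, at -0.12, was past the threshold by a small margin (adjusted p = 0.0306) and not under median centring or without any one of the NSC libraries or astrocyte replicate 3.

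Proteases and their inhibitors were 15 higher and 15 lower of 36. The inhibitors Timp2, Timp4 and Timp3 rose by 2.66 (SE 0.05), 1.99 and 1.81. Mmp19 rose by 4.19 (SE 0.16), and the sheddases Adam19 and Adam12 fell by 4.21 and 3.48 (SE 0.12). Cell adhesion genes rose in 24 of 42 and fell in 13. Nfasc (neurofascin) rose by 3.57 (SE 0.05), from a highest NSC value of 9.05 to 12.71, 12.59 and 12.51, and the integrins Itga4 and Itga9 fell by 3.87 (SE 0.19) and 2.91 (SE 0.11). Of 60 guidance genes 28 rose and 21 fell. Robo2 and Draxin rose by 2.13 each, and the ligands Ntn1, Slit1 and Slit2 fell by 2.27 (SE 0.07), 2.43 and 1.61. Slit3 rose by 4.75 from values between 0.27 and 1.10, all under the filter, so that the size of its rise is uncertain. S100 proteins and annexins rose in 13 of 14 tested with none lower in limma at an adjusted p under 0.05 (1 lower without NSC replicate 1), with a median of 2.05. Anxa2 and Anxa5 rose by 1.55 and 1.43, and S100a4 by 3.02, sharing 44.8% of its stretches with an overlapping gene model.

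Genes of other neural lineages were few above the filter. Of 13 neuronal genes tested (of 30) 8 fell and 2 rose, with 4 higher under median centring and 5 without a filter on low values. Insm1, a factor of newborn neurons, fell by 3.17 (SE 0.16), Elavl4 by 2.76 and Stmn1 by 2.38 (SE 0.04). Rbfox3, which encodes NeuN, rose by 2.28 (SE 0.14), and Dcx changed by 0.15 (adjusted p = 0.649). The summed level of the 7 neuronal markers with a row was 22560 to 23460 in NSC libraries and 17770 to 20630 in astrocyte libraries, nearly all of it from Map2, a cytoskeletal gene. Of 11 oligodendrocyte lineage genes tested (of 22) 6 rose and 5 fell. Enpp6 and C1ql1 rose by 3.82 and 3.61, whereas Bcas1, Ugt8a and Nkx2-2 fell by 2.35, 2.34 and 2.15.

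Motile cilium genes of ependymal cells rose in 21 of 27 tested and fell in 3, with 24 of the 51 listed not tested. Foxj1, the master regulator of motile cilia, had values of 9.76, 9.45 and 9.41 in NSCs and 11.32, 10.97 and 11.15 in astrocytes, a rise of 1.60 (SE 0.11). The dynein Dnah9 rose by 3.78 (SE 0.20), from 3.24, 3.07 and 2.92 to 7.25, 6.77 and 6.58. Cfap43 fell by 2.81 (SE 0.07), from 10.29, 10.26 and 10.10 to 7.49, 7.37 and 7.36, and Hydin by 2.49 (SE 0.21). The sum over the 4 ependymal markers with a row was 701 to 883 in NSC libraries and 2066 to 2624 in astrocyte libraries, nearly all of it from Foxj1 itself, with Dnah12 and Ccdc153 under the filter. Among 6 microglial and dendritic genes tested 2 rose (1 without NSC replicate 1 or 2 or astrocyte replicate 3) and 1 fell, none by as much as 1, and among 11 vascular and fibroblast genes 3 rose and 4 fell, with Acta2, a smooth muscle actin, lower by 2.65 (SE 0.41). Rgs5, a pericyte gene, rose by 3.58 (SE 0.21), from 2.10, 2.77 and 2.40 to 6.11, 5.83 and 6.07, in the direction of Kcnj8.

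Chromatin, imprinted and growth arrest genes closed the survey. DNA methylation and Polycomb enzymes fell in 23 of 39 and rose in 11. Uhrf1, which brings Dnmt1 to newly copied DNA, fell by 4.63 (SE 0.06, adjusted p = 1.16e-10), from 11.84, 11.91 and 12.00 to 7.32, 7.32 and 7.23. Dnmt1 fell by 1.86 and Ezh2 by 2.41 (SE 0.05), whereas its relative Ezh1 rose by 1.86 (SE 0.07). Imprinted genes were 12 higher and 12 lower of 26. Mest fell by 3.39 (SE 0.05), from 13.94, 14.01 and 14.09 to 10.58, 10.60 and 10.70, and Peg12 by 3.69, and Plagl1 rose by 1.93. Of 34 genes of senescence and growth arrest 12 rose and 17 fell. The CDK inhibitor Cdkn2b rose by 2.04 (SE 0.09) and Cdkn1b by 0.56 (SE 0.06), and Cdkn1a (p21) fell by 0.83 (SE 0.05). Igfbp7 rose by 3.02 and Igfbp3 fell by 3.70 (SE 0.11). Of 20 long non-coding RNAs 8 rose and 10 fell, with Miat, Neat1 and Malat1 higher by 4.35, 3.19 and 1.83 and the snoRNA hosts Snhg5 and Snhg15 lower by 1.34 and 1.05.

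The change in the tdTomato line was set beside that in the other lines by a test of the difference between changes, each over 12 libraries. Against the EYFP-traced spinal cord line (DNGR-1 +/- EYFP+/-), 1781 of 15117 genes (11.8%) differed, 870 (5.76%) with a higher and 911 (6.03%) with a lower change in the tdTomato line and 345 (2.28%) by at least 1, and the count was 1080 and 1055 without tdTomato NSC replicates 2 and 3 and 1119 without EYFP NSC replicate 1. Cxcl12, a chemokine, went from 5.64, 5.84 and 5.62 to 8.41, 8.13 and 7.99 in the tdTomato line and from 4.85, 4.16 and 4.18 to 3.44, 3.08 and 3.12 in the EYFP line, a difference of 3.66 (SE 0.27, adjusted p = 2.25e-05). Its scavenger receptor Ackr3 rose by 2.77 against 0.58 in the EYFP line, a difference of 2.19 (SE 0.27). The lines differed in NSCs (Ackr3 means of 7.73 in tdTomato and 9.73 in EYFP) more than in astrocytes (10.50 and 10.31). Chac1 differed by 2.17 (SE 0.57, adjusted p = 0.0268), with EYFP NSC libraries spread from 6.97 to 9.32, and was not past the threshold without tdTomato NSC replicate 3, tdTomato astrocyte replicate 2 or 3, EYFP NSC replicate 1 or EYFP astrocyte replicate 1 or 3. In the other direction Sparcl1, a matrix protein, rose by 2.54 in the tdTomato line and by 5.36 in the EYFP line, Stk32b fell by 4.65 and 2.10, and Celf4 changed by -2.98 and 0.18.

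Against the hippocampal line (DNGR-1+/+, with Cre driven by Glast and a floxed Huwe1 allele by the name of its strain) 6961 of 15303 genes differed (45.5%), 2973 (19.4%) with a higher and 3988 (26.1%) with a lower change in the tdTomato line and 1815 (11.9%) by at least 1. Genotype, tissue and line cannot be told apart here. Pi15 rose by 6.15 in the tdTomato line and by 1.75 in the hippocampal line, a difference of 4.40 (SE 0.25, adjusted p = 2.53e-08). Adamtsl2 changed by 3.63 and -0.59. Serpina3m, Galnt9 and Cnmd did not leave the bottom of the scale in the tdTomato line, at 2.43 or less in all 6 libraries, and rose to between 7.90 and 10.30 in hippocampal astrocytes.

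**Figure D5:**
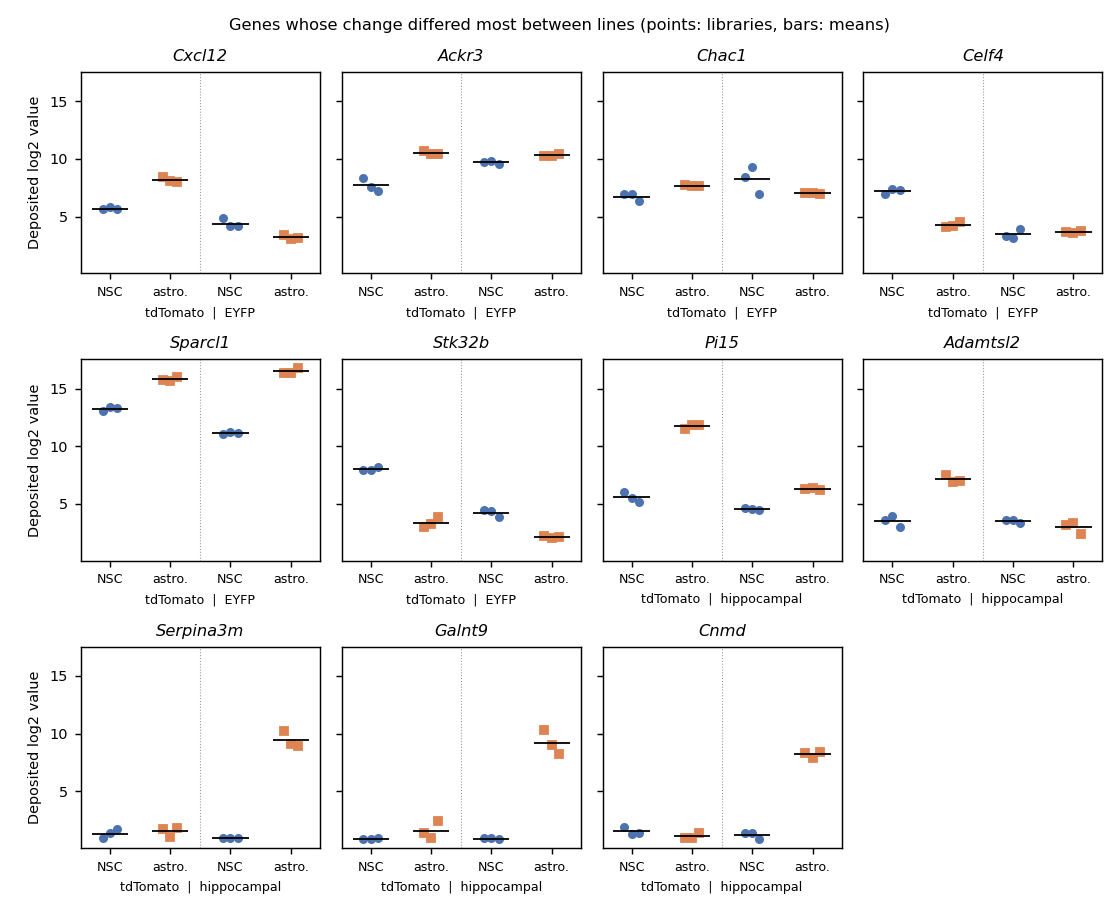
Deposited log2 values in the 3 NSC libraries (blue circles) and 3 astrocyte libraries (orange squares) of the tdTomato line (left of the dotted line) and of the EYFP or hippocampal line (right), with bars at the means, for 11 of the 12 genes with the largest differences in change under the naming rule. Cxcl12 rises in the tdTomato line and falls in the EYFP line, and Serpina3m, Galnt9 and Cnmd are high only in hippocampal astrocytes among the 4 groups shown.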

How the data were processed

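RNA from 6 libraries of the tdTomato line, and 12 of the other lines, was analysed as deposited. The authors aligned reads to GRCm38 with STAR and RSEM and normalized counts with DESeq2 (Trimmomatic 0.36, STAR 2.5.2, RSEM 1.3.0, DESeq2 1.18.1 and R 3.4.3 in the submitters' processing notes). The deposited table holds log2 values per gene, of which 29.4% are negative. The transform is not given in the sources used here, counts cannot be recovered from it, and the depth of each library is unknown. The library kit and read length differ between the labels and the study's methods.

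Values were tested as they stand, with no pseudocount, in limma 3.58.1 under R 4.3.3, letting the variance follow the mean, 3 libraries against 3, and Benjamini-Hochberg adjusted p-values over all 14728 genes that passed the filter. Differences between lines were tested as the interaction of fate and line over 12 libraries. On simulated data for the tdTomato change, 67 of 14728 genes were changed by 0.5, 67 by 1 and 66 by 2. Of these 53.7%, 86.6% and 100% were recovered, with 8 false calls among the unchanged genes. In the deposited data 79.3% of genes were called, and the Benjamini-Hochberg cutoff depends on that share. The shares recovered in simulation therefore do not carry over to these data. The gene lists, members and rules were chosen with earlier results of these data known. Named genes were the 20 largest rises and falls, the key members and up to 3 largest rises and falls of each list, the markers, and the 3 largest differences in each direction between lines. Some genes that these rules name are not reported here. Of 1695 list genes 1663 had a row. Uniqueness was computed over 75-base stretches of annotated transcripts. Alternatives were other filters, scalings, variance models, a replicate block, all 18 libraries in a single fit, and leaving out each library.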

Additional observations from a re-analysis of the deposited data

Results flagged for a closer look

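The change from NSCs to astrocytes in the tdTomato line differed from that in the EYFP line for 1781 genes and from that in the hippocampal line for 6961 genes, by limma's test of the difference itself. The genes below are among those with the largest differences, each given as the tdTomato change minus the other line's change on the log2 scale, over 3 libraries per group.

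Against the EYFP line Cxcl12 differed by 3.66, Ackr3 by 2.19 and Chac1 by 2.17, and in the other direction Celf4 by -3.16, Sparcl1 by -2.82 and Stk32b by -2.55. The Chac1 difference is the least certain of these, since it was not past the threshold under several alternatives. Stk32b and Celf4 were near the filter already in EYFP NSCs, so that a fall had little room in that line. Ackr3 differed mainly in NSCs, with means of 7.73 in the tdTomato line and 9.73 in the EYFP line. Its astrocyte means were 10.50 and 10.31. Against the hippocampal line Pi15 differed by 4.40 and Adamtsl2 by 4.22, and in the other direction Serpina3m by -8.30, Galnt9 by -7.57 and Cnmd by -7.44. For the last 3 genes the values in the tdTomato line lie at the bottom of the scale in both fates, so that the size of the difference has no fixed meaning. Line, tissue and genotype cannot be told apart.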

How the results depend on the processing

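The counts of genes past the threshold in the tdTomato line stayed within 1.5 times their values (5870 higher, 5811 lower) under every alternative run. With any library left out they were 5083 to 5689 higher and 5273 to 5819 lower, and 581 to 622 list members were higher and 539 to 589 lower. Median centring, which moves the median change by 0.0821, gave 6479 higher and 5205 lower. The replicate numbers did not pair the samples, since the deviations of same-numbered libraries correlated at -0.063, 0.0067 and -0.0054. Blocking on the replicate number left 5722 genes higher and 5697 lower, 625 list members higher and 578 lower, and 1954 and 6858 genes differed from the EYFP and hippocampal lines. The count of genes that differed from the EYFP line was the least stable, 1055 to 2248 with any library left out, with 1080 without tdTomato NSC replicate 2, 1055 without tdTomato NSC replicate 3 and 1119 without EYFP NSC replicate 1; the cause was not tested. Against the hippocampal line the range was 6136 to 7183. Counts of single gene lists were less stable than the totals. Of the 96 such counts 8 moved by more than 1.5 times with a library left out and 20 under another alternative, for example intermediate filaments higher from 5 to 3 and complement genes higher from 10 to 5 with the filter at 100 on the linear scale. A stricter filter tests fewer genes, and leaving out a library drops genes that reached the filter in the 3 libraries of a single fate. No named gene changed direction past the threshold. With a library left out 9 named results lost their call at least once and 8 gained one, and under the other alternatives 13 lost and 5 gained one. Without reads or counts, the depth behind weak genes could not be assessed.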
